A study of Arabidopsis thaliana with 97 samples.

Results

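The 49 nuclear genes described here encode the light-harvesting proteins of photosystem I (LHCA, 4 genes) and photosystem II (LHCB, 14 genes), nuclear-encoded subunits of photosystem I (PSA, 12 genes) and photosystem II (PSB, 11 genes), the Rieske protein and the plastocyanins (PETC, PETE1 and PETE2, 3 genes), the small subunit of Rubisco (RBCS, 4 genes) and Rubisco activase (RCA, 1 gene). They were chosen by name, with no measured value in the rule but with earlier results of these data known, from 27878 sense loci with tags, and 49 of 49 passed the filter on low counts. Their transcripts were followed in discs cut from leaves of Arabidopsis thaliana plants 5 weeks old and given flg22, a peptide of bacterial flagellin that the leaf recognises through the receptor kinase FLS2. Discs of wild type Col-0 and of the npr1-1, jar1-1 and ein2-5 mutants in the same ecotype were kept in water for about a day, and were then given fresh water for 8 min or 100 nM flg22 for 8, 15, 30, 45 or 60 min or for 120 or 180 min. NPR1 acts in salicylic acid signalling, JAR1 conjugates jasmonic acid to isoleucine and EIN2 acts in ethylene signalling. Each of the 32 groups had 3 replicates, which makes 96 libraries.

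Photosynthetic electron flow starts at photosystem II, which takes electrons from water, and passes through the cytochrome b6f complex and the small copper protein plastocyanin to photosystem I. Both photosystems are mosaics: their reaction centres are encoded in the chloroplast, while the antenna proteins and many peripheral subunits are encoded in the nucleus, made in the cytosol and imported. Rubisco is built the same way, with a large subunit from the chloroplast and a small subunit from the nuclear RBCS family, and Rubisco activase removes sugar phosphates that block its active sites. These transcripts are among the most abundant of a green leaf and follow light, the circadian clock and sugar status.

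Gene positions and sequences are those of the RefSeq genome TAIR10.1. Several of the results set 2 genes for the same protein side by side, so the 250 bases before the annotated start of 7 of them are given first, 5′ to 3′ on the gene's own strand. PSAD1 (chr4:1230165-1230414, minus strand) and PSAD2 (chr1:754263-754512, minus strand) encode the ferredoxin-docking subunit of photosystem I. PSAH1 (chr3:5469595-5469844, minus strand) and PSAH2 (chr1:19454548-19454797, plus strand) encode the subunit to which the mobile antenna docks. LHCB1.4 (chr2:14524357-14524606, plus strand) and LHCB1.5 (chr2:14523569-14523818, minus strand) encode the major antenna protein of photosystem II and are neighbours in opposite orientation, 1038 bases apart. RBCS2B (chr5:15382072-15382321, minus strand) is 1 of the 3 RBCS genes in a row on chromosome 5. Capitals mark the motifs searched on both strands, which were the TATA box (TATAAA), the I-box (GATAAG), the G-box (CACGTG), the CCA1-binding site (AAAAATCT or AACAATCT), the evening element (AAAATATCT) and the W-box (TTGACC or TTGACT).
RBCS2B: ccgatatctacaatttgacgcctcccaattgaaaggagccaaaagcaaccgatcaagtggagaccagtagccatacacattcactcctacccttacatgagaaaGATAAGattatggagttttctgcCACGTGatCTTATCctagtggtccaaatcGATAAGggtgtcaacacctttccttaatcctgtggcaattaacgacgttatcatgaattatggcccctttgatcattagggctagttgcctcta
PSAH1: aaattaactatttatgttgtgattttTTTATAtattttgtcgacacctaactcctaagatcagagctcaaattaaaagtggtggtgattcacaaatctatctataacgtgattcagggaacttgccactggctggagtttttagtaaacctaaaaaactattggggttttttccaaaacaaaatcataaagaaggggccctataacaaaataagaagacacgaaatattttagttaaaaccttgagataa
PSAH2: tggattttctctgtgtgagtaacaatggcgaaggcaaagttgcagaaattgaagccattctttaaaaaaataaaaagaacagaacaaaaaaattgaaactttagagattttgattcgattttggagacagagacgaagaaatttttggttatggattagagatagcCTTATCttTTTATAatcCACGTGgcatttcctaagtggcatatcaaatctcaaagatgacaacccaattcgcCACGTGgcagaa
PSAD1: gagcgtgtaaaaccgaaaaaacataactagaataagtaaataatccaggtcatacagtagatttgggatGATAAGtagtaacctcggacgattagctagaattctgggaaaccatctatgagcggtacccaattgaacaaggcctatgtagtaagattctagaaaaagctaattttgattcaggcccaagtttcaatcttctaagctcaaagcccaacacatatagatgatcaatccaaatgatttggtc
PSAD2: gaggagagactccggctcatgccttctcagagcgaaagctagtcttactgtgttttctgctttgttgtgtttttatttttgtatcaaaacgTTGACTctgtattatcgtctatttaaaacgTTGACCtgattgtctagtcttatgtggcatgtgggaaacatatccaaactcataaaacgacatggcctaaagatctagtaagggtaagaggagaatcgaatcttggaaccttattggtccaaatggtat
LHCB1.4: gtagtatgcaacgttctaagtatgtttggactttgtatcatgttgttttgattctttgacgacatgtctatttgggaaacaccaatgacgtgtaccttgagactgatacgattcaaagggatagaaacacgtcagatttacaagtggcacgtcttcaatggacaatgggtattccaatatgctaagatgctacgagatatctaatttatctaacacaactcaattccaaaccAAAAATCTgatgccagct
LHCB1.5: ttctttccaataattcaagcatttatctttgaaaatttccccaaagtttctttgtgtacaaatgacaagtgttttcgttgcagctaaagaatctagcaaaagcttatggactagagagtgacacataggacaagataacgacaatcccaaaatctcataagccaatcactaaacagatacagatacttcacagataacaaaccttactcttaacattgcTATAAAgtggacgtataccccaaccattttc
RBCS2B carried 3 I-boxes and 1 G-box, PSAH2 carried 1 I-box, 1 TATA box and 2 G-boxes, and PSAH1 carried 1 TATA box. PSAD1 had 1 I-box, PSAD2 had 1 W-box of each form, LHCB1.4 had a CCA1-binding site and LHCB1.5 a TATA box. The TATA box letters of PSAH1 and PSAH2 were on the opposite strand (TTTATA), 224 and 76 bases before the start. Those of LHCB1.5 were on the gene's own strand, 31 bases before the start. Over all 49 members the I-box was found in 26.5% of the windows against 12.3% of 27443 promoters of the same length, and the G-box in 20.4% against 6.49%. The TATA box was found in 42.9% against 47.4%, the CCA1-binding site in 10.2% against 6.69% for AAAAATCT and in 2.04% against 1.83% for AACAATCT, and the evening element in 0% against 2.36%. The W-box, the target of WRKY factors, was found in 10.2% against 12.2% for TTGACC and in 10.2% against 19.1% for TTGACT. A match is a run of letters and was not tested as a binding site.

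Each library was made of tags from near the 3′ end of poly(A) transcripts, so a level, given here as CPM (tags scaled to a common library size with the TMM factors of edgeR), is per transcript molecule and needs no correction for transcript length. Libraries held 388690.7 to 2415392.8 tags, with a median of 1376884.55. The same 8 barcodes, each tied to a condition and time, were used again for every replicate of every genotype, so barcode and time cannot be told apart. The labels give a replicate number and no lane. Libraries of 1 genotype and 1 replicate number may have shared a sequencing lane, and the number may also stand for a harvest. Per the study, Col-0 and npr1-1 were on lanes of a shared flow cell and jar1-1 and ein2-5 on flow cells of separate runs, so genotype and run cannot be told apart for jar1-1 and ein2-5. Water was sampled at 8 min only, hence time in the dish and flg22 cannot be told apart at the later times. Tags on organelle loci took 6.49 to 44.35% of a library. In the mutants, NPR1 was at 15.8 to 22.8 CPM in npr1-1 water against 13.5 to 23.3 in Col-0 water, JAR1 at 43.2 to 47.0 against 40.7 to 48.9 and EIN2 at 2.34 to 7.15 against 11.3 to 24.5. The ranges overlapped for NPR1 and JAR1 and were apart for EIN2. Because whole discs were used, fewer cells of a type and less RNA per cell cannot be told apart.

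In Col-0 water the 49 genes together took 7.19, 7.12 and 4.72% of all tags in replicates 1, 2 and 3 (mean 6.34 ± 1.41, SD, n = 3). After 180 min of flg22 they took 1.59, 0.731 and 0.746% (1.02 ± 0.491). Each of these 3 libraries lay below every water library of Col-0. The mean shares in water and at 180 min were 6.59 ± 0.331 and 2.14 ± 0.728% for ein2-5, 6.60 ± 0.153 and 1.07 ± 0.194% for jar1-1 and 5.81 ± 0.910 and 0.903 ± 0.239% for npr1-1 (SD, n = 3 each). Replicate 1 had the highest share in 24 of the 28 flg22 groups and in 2 of the 4 water groups. Of the 343 pairs of a member and a flg22 group in a genotype, replicate 1 was highest in 279 for ein2-5, 223 for jar1-1, 304 for npr1-1 and 301 for Col-0. The replicate number thus moved with the level of these genes, and results are given without a replicate term and, where a call or a count depends on it, with the replicate number within a genotype as a term (the replicate term).

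**Figure D1:**
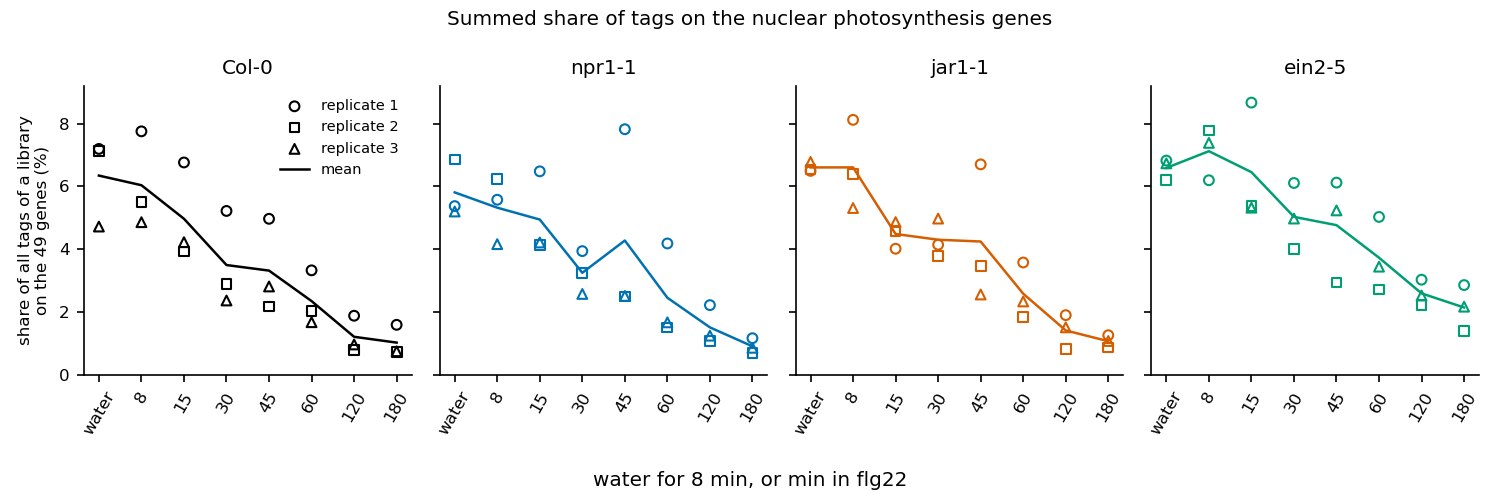
Share of all tags of a library on the 49 genes (percent, y axis) in water for 8 min and by time in flg22 (min, x axis), with a panel for each genotype, a symbol for each replicate and a line through the means of 3 libraries. The mean went from 6.34% in water to 1.02% at 180 min in Col-0 and from 6.59% to 2.14% in ein2-5, and replicate 1 was highest in 24 of 28 flg22 groups.

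In Col-0 a few photosynthesis transcripts were lower at 15 to 45 min of flg22 and most of them from 120 min on. Without the replicate term, their share at 15 to 45 min was below that of all genes. Members were counted as lower or higher at an adjusted p under 0.01 in edgeR's quasi-likelihood test with Benjamini-Hochberg adjustment over all 16816 features, and the share of all 14569 sense genes with the same call is given beside each count. At 8 min no member was lower by edgeR (0% of all genes), DESeq2 called none and 0 members had an unadjusted p under 0.05. At 15 min RBCS1B and PETE2 were lower (2 members; all genes 4.63%), at 30 min RBCS1B and PSBY (2; 8.57%), and at 45 min RBCS1B, RBCS2B, PSAD1, PSBX, PSBY and PETE2 (6; 16.9%). The count was 15 at 60 min (22.5% of all genes), 37 after 120 min (20.2%) and 38 after 180 min (18.1%). The median log2 change of the members was -0.08, -1.06, -2.33 and -2.75 at 15, 60, 120 and 180 min, beside -0.14, -0.33, -0.09 and -0.10 for all genes.

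These counts depended on the replicates. In the fit with the replicate term 5, 10, 13, 35, 44 and 44 members were lower at 15, 30, 45, 60, 120 and 180 min (all genes 8.95, 12.6, 21.5, 27.2, 23.3 and 21.3%), and 3 were higher at 15 min (11.5%), namely LHCB2.1, LHCB2.2 and LHCB2.3. Without replicate 1 and with no replicate term, 3, 7, 10, 21, 44 and 43 members were lower at 15, 30, 45, 60, 120 and 180 min. Without replicate 2 the counts were 0, 0, 1, 7, 16 and 23, and without replicate 3 they were 0, 0, 1, 6, 19 and 26. In each case more members were lower at 120 and 180 min than at 60 min, and the counts up to 45 min were 0 or 1 without replicate 2 or 3. Between 60 and 180 min, 17 members fell further (8.72% of all genes), 37 with the replicate term (11.6%) and 30, 6 and 5 without replicate 1, 2 and 3. The shares of all genes without 1 replicate are not given, here or for the mutants, so those counts are not set against them.

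**Figure D2:**
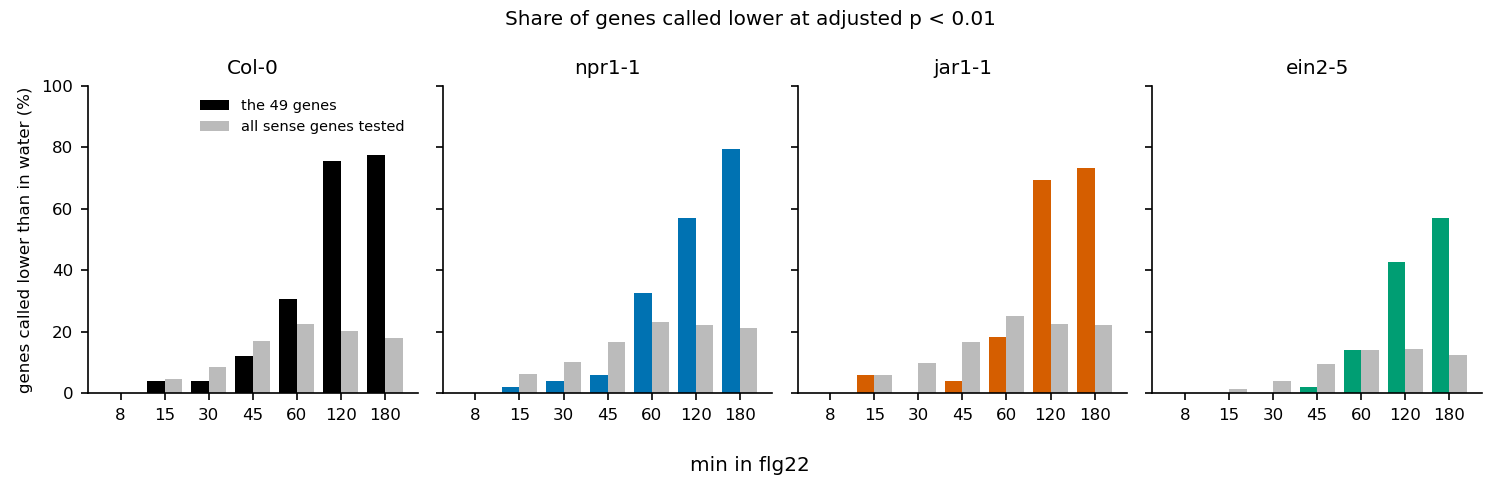
Share of the 49 genes (coloured bars) and of all sense genes tested (grey bars) called lower than in water at an adjusted p under 0.01 by edgeR without a replicate term (percent, y axis), at each time in flg22 (min, x axis), with a panel for each genotype. In Col-0 38 of 49 members were lower at 180 min beside 18.1% of all genes, and in ein2-5 28 of 49 beside 12.3%.

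A small subunit gene of Rubisco, RBCS1B, was 1 of the 2 members lower at 15 min in Col-0, with PETE2. RBCS1B (AT5G38430, chromosome 5, 15383167 to 15385320) stood at 2452, 4513 and 3731 CPM in Col-0 water, at 1051, 535 and 679.5 after 15 min and at 142, 99.6 and 91.7 after 180 min. All 3 libraries lay below all water libraries at both times. The log2 change was -2.24 ± 0.48 (SE, edgeR adjusted p = 0.000219) at 15 min, -2.86 ± 0.49 at 60 min and -5.003 ± 0.54 at 180 min (adjusted p = 8.04e-12), a 32.1-fold fall. RBCS2B (AT5G38420, chromosome 5, 15380907 to 15382071) went from 2403, 5104 and 3509.9 CPM to 221, 52.0 and 96.5 at 180 min, a log2 change of -4.89 ± 0.60 (edgeR adjusted p = 2.61e-10). RBCS1A (AT1G67090, chromosome 1, 25048158 to 25049667), the most abundant of the 49 transcripts in Col-0 water, kept a larger part of its level. It stood at 10475, 13447 and 10459 CPM in water, at 9432, 8051 and 5531 at 60 min and at 4846, 2404 and 3233 at 180 min. Its change at 60 min, -0.58 ± 0.33 on the log2 scale, did not pass the test (edgeR adjusted p = 0.146, and 0.0306 with the replicate term), and it fell by 1.71 ± 0.34 at 180 min (adjusted p = 2.61e-05). RBCS3B had a change of -1.30 ± 0.54 at 60 min (edgeR adjusted p = 0.0404, and 0.000685 with the replicate term) and of -3.07 ± 0.58 at 180 min (adjusted p = 9.52e-06). Of the windows of 36 bases in the coding sequence, 64.4% in RBCS1B, 58.3% in RBCS2B and 52.8% in RBCS3B occurred in another member, against 8.07% in RBCS1A. The windows span the coding sequence, whereas the tags came from near the 3′ end. Tags that fit several genes were split equally among them. Tag numbers were not whole in 86 of 96 libraries for RBCS1A, 85 for RBCS1B, 90 for RBCS2B and 88 for RBCS3B. The values of these genes, RBCS1A among them, are thus not fully separate.

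RCA (AT2G39730, chromosome 2, 16570746 to 16573692), whose product keeps Rubisco active, held 1271, 1709 and 1146 CPM in Col-0 water, 1319.6, 546 and 496 at 60 min and 296, 105 and 170.0 at 180 min. The groups overlapped at 60 min through replicate 1 and were apart at 180 min. Its change was -0.80 ± 0.54 at 60 min (edgeR adjusted p = 0.222, and 0.00225 with the replicate term), and it fell by 2.85 ± 0.58 at 180 min (adjusted p = 4.00e-05).

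All 4 LHCA genes, for the antenna of photosystem I, were lower at 120 and at 180 min in Col-0 (all genes 20.2 and 18.1%). Their median log2 change was -2.40 and -2.77. LHCA3 (AT1G61520, chromosome 1, 22699715 to 22701412), the most abundant of them, held 1707, 1601 and 1065 CPM in water, 861, 500.0 and 449 at 60 min and 252, 133 and 131 at 180 min. Each flg22 library at these times lay below the water libraries. The log2 change was -1.27 ± 0.51 at 60 min (edgeR adjusted p = 0.0336, and 1.82e-05 with the replicate term) and -3.08 ± 0.55 at 180 min (adjusted p = 3.50e-06).

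Of the 14 LHCB genes, which encode the antenna of photosystem II, 1 was lower at 60 min, 4 at 120 min and 5 at 180 min in Col-0. The shares of all genes at these times were 22.5, 20.2 and 18.1%. LHCB4.2 (AT3G08940, chromosome 3, 2717557 to 2718923), for the minor antenna protein CP29, was the one at 60 min, with 177, 173 and 85.8 CPM in water and 32.2, 18.0 and 11.3 at 60 min (log2 change -2.82 ± 0.85, edgeR adjusted p = 0.00417). Those at 180 min were LHCB1.3, LHCB4.1, LHCB4.2, LHCB5 and LHCB6. The LHCB1 genes encode the major trimeric antenna protein. LHCB1.5 (AT2G34420, chromosome 2, 14522524 to 14523568) held 3010.1, 1436 and 520.2 CPM in Col-0 water and 418, 171 and 146 at 180 min, so the water replicates were far apart but did not overlap the later ones. Its log2 change of -2.75 ± 1.05 at 180 min missed the threshold (edgeR adjusted p = 0.0280) and passed it with the replicate term (-2.70 ± 0.43, adjusted p = 1.42e-07). The same held at 180 min for LHCB1.1, LHCB1.2 and LHCB3, with adjusted p of 0.0334, 0.0213 and 0.0104 by edgeR without the replicate term and of 2.92e-05, 9.27e-06 and 3.12e-06 with it.

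LHCB1.4 (AT2G34430, chromosome 2, 14524607 to 14525918), the neighbour of LHCB1.5 on chromosome 2, held 796, 538 and 164 CPM in Col-0 water, 165, 79.9 and 113 at 60 min and 733, 352 and 496 at 180 min. The libraries at 180 min overlapped those in water, with a log2 change of 0.08 ± 0.87 (edgeR adjusted p = 0.957, and 0.952 with the replicate term). At 60 min the change was -2.06 ± 0.92 (edgeR adjusted p = 0.0539, and 0.00149 with the replicate term), and from 60 to 180 min it was 2.14 ± 0.92 (adjusted p = 0.0794, and 0.00233 with the replicate term). Of the coding windows of 36 bases, 34.1% in LHCB1.4 and 33.8% in LHCB1.5 also occurred in another member. Their tag numbers were not whole in 77 and 84 of 96 libraries.

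**Figure D3:**
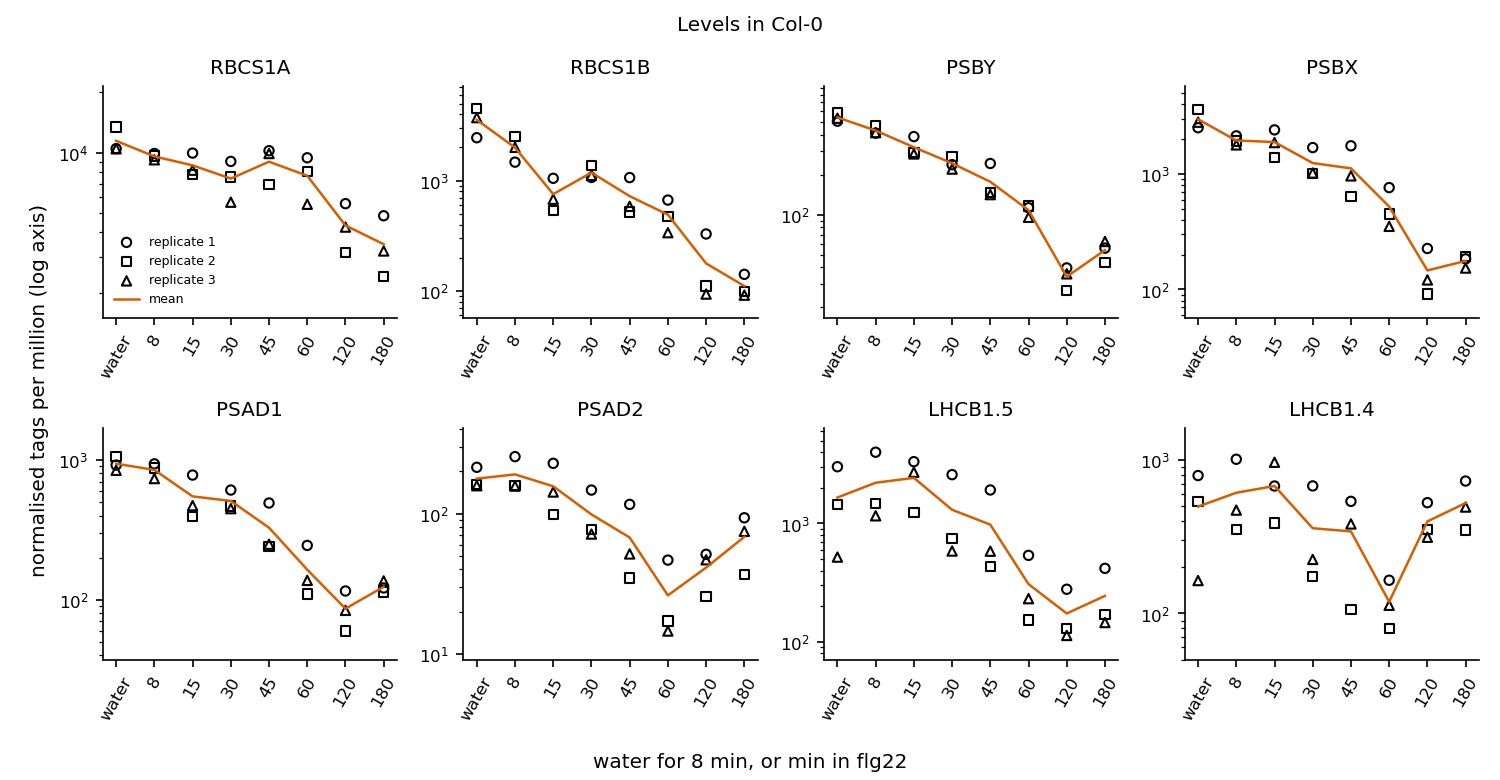
Normalised CPM (y axis, log scale, a range of its own in each panel) of 8 members in Col-0, in water for 8 min and by time in flg22 (min, x axis), with a symbol for each replicate and a line through the means of 3 libraries. RBCS1B went from a mean of 3566 CPM in water to 111 at 180 min and RBCS1A from 11460.2 to 3494, while LHCB1.4 was at 119 at 60 min and 527 at 180 min.

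The LHCB2 genes, which encode the antenna protein whose phosphorylation moves antenna between the photosystems, had the highest log2 changes of all members at 15 min in Col-0. In Col-0 LHCB2.1 held 35.3, 24.5 and 12.8 CPM in water and 308, 33.3 and 83.6 at 15 min. Replicate 1 lay far above the others at 15 min, and replicate 2 fell within the range of water. The log2 changes at 15 min were 2.53 ± 1.05 for LHCB2.1, 2.28 ± 0.98 for LHCB2.2 and 2.21 ± 0.98 for LHCB2.3 (edgeR adjusted p = 0.0724, 0.0857 and 0.0966), and with the replicate term all 3 rose. LHCB2.3 rose in npr1-1 at 15 min (3.59 ± 0.99, edgeR adjusted p = 0.00433) and at 45 min (3.26 ± 1.00, adjusted p = 0.00645) and in ein2-5 at 15 min (4.33 ± 0.93, adjusted p = 0.000585). It was scarce, at 9.10, 0 and 5.27 CPM in ein2-5 water and 239, 19.5 and 33.2 at 15 min, replicate 1 being the highest. Without replicate 1 its log2 change at 15 min was 2.40 in npr1-1 and 3.23 in ein2-5, and neither was called, nor was either without replicate 3. The 3 LHCB2 genes stood above water at 15 min in all 4 genotypes in each of 11 settings of the processing. Summed paralogues were not among these settings. The lowest log2 change was 1.20, for LHCB2.3 in Col-0 without replicate 1. LHCB2.1 and LHCB2.2 had 51.0% of their coding windows of 36 bases in another member, hence their values are not independent of each other, and LHCB2.3 had 0.348%.

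Of the 12 PSA genes, for subunits of photosystem I, 3 were lower at 60 min in Col-0 (PSAD1, PSAD2 and PSAH2) and 11 at 180 min. The shares of all genes at these times were 22.5 and 18.1%. PSAL (AT4G12800, chromosome 4, 7521257 to 7522761), the most abundant, encodes the subunit that joins photosystem I into trimers in cyanobacteria. It held 1156, 1112 and 879 CPM in water, 729, 560.2 and 552 at 60 min and 281, 126 and 171 at 180 min, with a change of -0.77 ± 0.44 at 60 min (edgeR adjusted p = 0.143, and 0.00882 with the replicate term) and of -2.44 ± 0.47 at 180 min (adjusted p = 1.26e-05). PSAD1 (AT4G02770, chromosome 4, 1229031 to 1230164) went from 918, 1056 and 842 CPM to 244, 110.0 and 137 at 60 min, and PSAD2 from 214, 161 and 158 to 46.6, 17.2 and 14.5. At 180 min PSAD1 was at 121, 114 and 136 and PSAD2 at 93.4, 36.8 and 74.8, so that PSAD2 was nearer to its water level than at 60 min. PSAD2 changed by -2.76 ± 0.54 at 60 min (edgeR adjusted p = 1.44e-05) and by -1.38 ± 0.50 at 180 min (adjusted p = 0.0211, and 9.20e-05 with the replicate term), a difference between the times of 1.38 ± 0.54 (adjusted p = 0.0476, and 0.00127 with the replicate term). LHCB1.4 and PSAD2 were the members higher at 180 than at 60 min in Col-0 with the replicate term (2 members; all genes 11.3%).

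Of the 11 PSB genes, for subunits of photosystem II, 8 were lower at 60 min in Col-0 and 11 at 180 min (all genes 22.5 and 18.1%). PSBR (AT1G79040, chromosome 1, 29735952 to 29737009), for a small subunit near the oxygen-evolving complex and the most abundant PSB transcript, stood at 4196, 4521 and 4189 CPM in water, 2343, 2198 and 1978 at 60 min and 1189, 601 and 788 at 180 min. Replicates were close in water and at 60 min. PSBR fell by 0.99 ± 0.32 on the log2 scale at 60 min (edgeR adjusted p = 0.00838) and by 2.32 ± 0.33 at 180 min (adjusted p = 2.56e-08). PSBX (AT2G06520, chromosome 2, 2587729 to 2588448), for a single-helix subunit, went from 2505, 3596 and 2798 CPM to 761, 450.2 and 352 at 60 min and 184, 193 and 153 at 180 min (log2 change -4.07 ± 0.50, edgeR adjusted p = 3.16e-10). PSBP1 and PSBO2 encode proteins of the oxygen-evolving complex and were 16.5-fold and 15.7-fold lower at 180 min, with log2 changes of -4.04 ± 0.55 and -3.97 ± 0.39 (edgeR adjusted p = 7.13e-09 and 2.35e-13).

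PSBY (AT1G67740, chromosome 1, 25394031 to 25395249), another small membrane subunit of photosystem II, stood at 505, 581 and 532 CPM in Col-0 water and at 113, 116 and 95.4 after 60 min of flg22. It was at 39.6, 26.8 and 35.8 after 120 min and at 55.9, 43.3 and 62.7 after 180 min. Its replicates lay close together, and the levels at 180 min did not overlap those at 120 min. It was lower from 30 min on (-1.15 ± 0.25 on the log2 scale, edgeR adjusted p = 0.000201) and its change was -3.98 ± 0.29 at 120 min (adjusted p = 1.18e-17) and -3.32 ± 0.28 at 180 min (adjusted p = 1.56e-15). PSBY was lower in all 4 genotypes at 60, 120 and 180 min.

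Of the electron carriers, PETE2 (AT1G20340, chromosome 1, 7042046 to 7043392), the major plastocyanin, stood at 1459, 2491 and 2024 CPM in Col-0 water, 445, 371 and 367 at 60 min and 170.5, 128 and 142 at 180 min. It fell by 2.34 ± 0.45 at 60 min (edgeR adjusted p = 1.44e-05) and by 3.76 ± 0.49 at 180 min (adjusted p = 1.33e-09). PETE1 (AT1G76100, chromosome 1, 28553883 to 28554930), the minor plastocyanin, was scarce throughout, with a mean of 8.35 CPM in Col-0 water. No PETE1 tag was found in the 3 Col-0 libraries at 120 min, against 38 tags in water, which makes it at least 6.68-fold lower when 3 tags over the group are taken as the floor. PETC, the Rieske iron-sulphur protein of cytochrome b6f, was lower at 120 and at 180 min, with a log2 change of -2.30 ± 0.29 at 180 min (edgeR adjusted p = 8.77e-10).

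**Figure D4:**
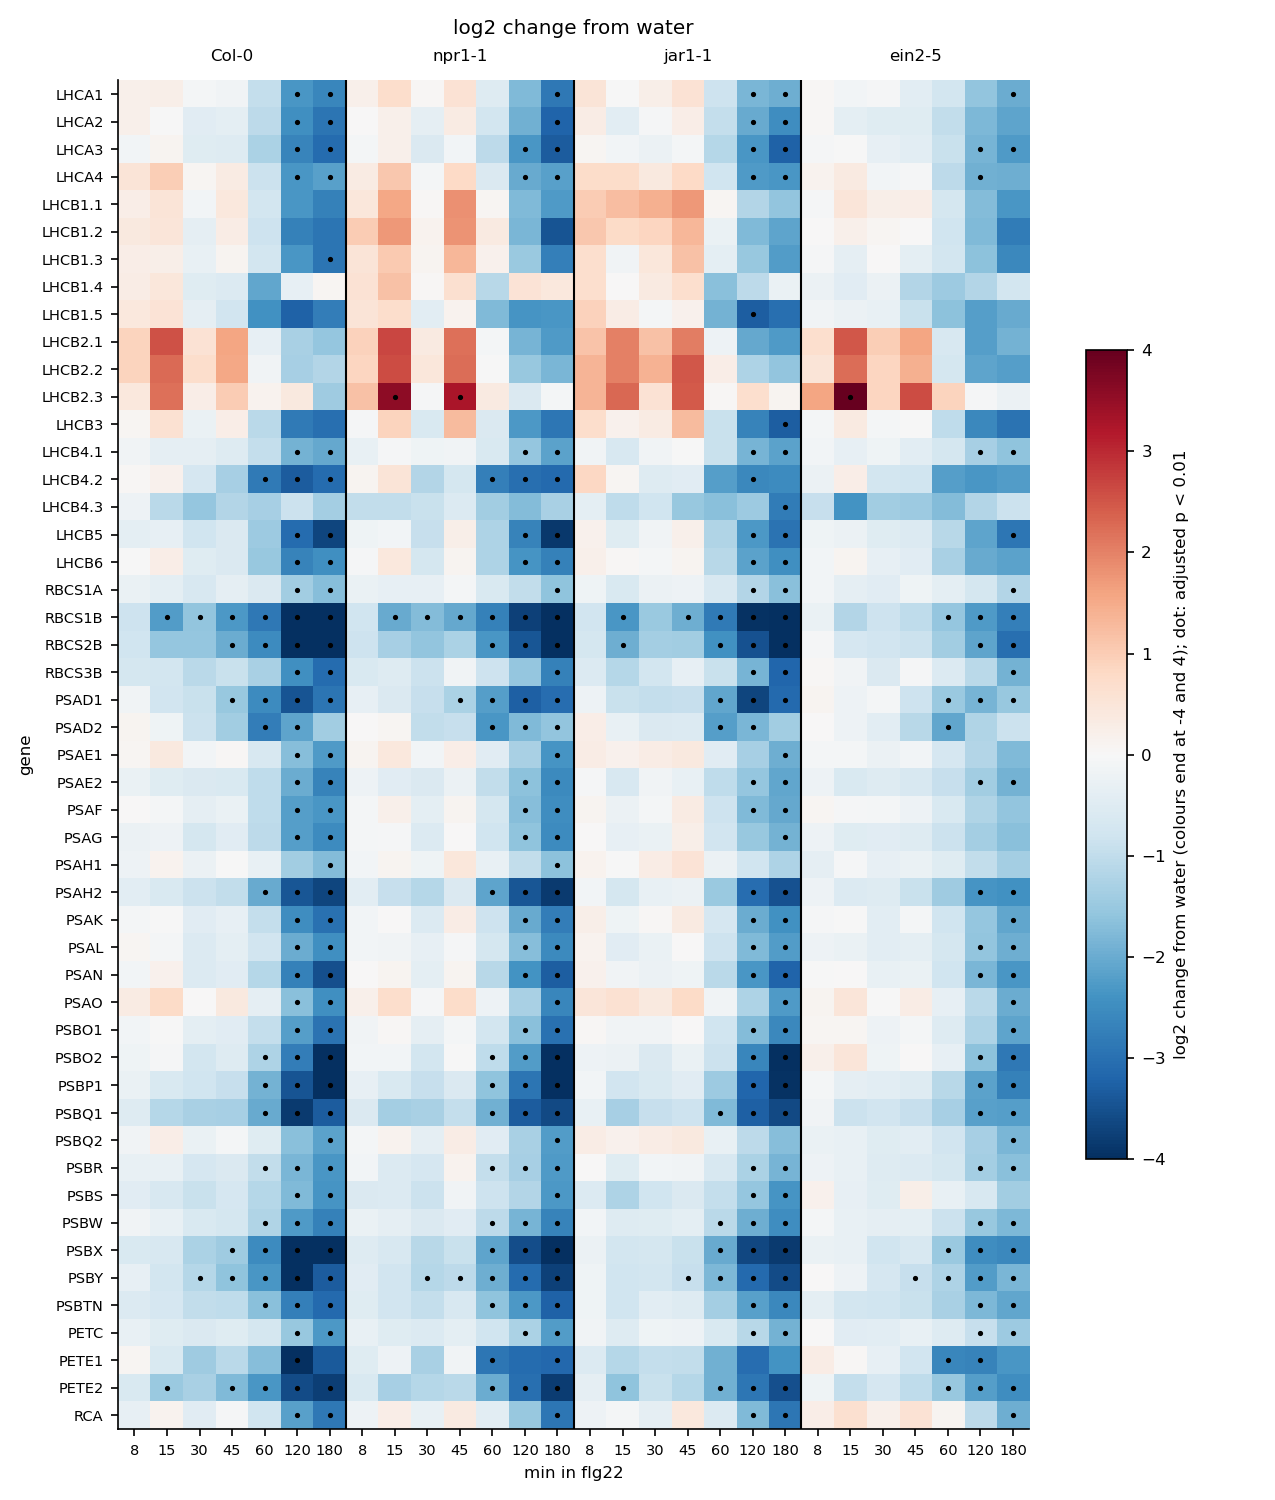
Log2 change from water of each of the 49 members (rows) at each time in flg22 (min, columns) in the 4 genotypes, by edgeR without a replicate term, with colours that end at -4 and 4 and a dot where the adjusted p was under 0.01. Most rows are darkest blue at 120 and 180 min, RBCS1B in Col-0 among them, whereas LHCB1.4 stands at 0.08 in Col-0 at 180 min and the LHCB2 genes are red at 15 min.

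Ratios of 2 genes for the same protein within a library are given as a description, with no test, because the 9 pairs were picked after their values were seen. The difference in mean log2 ratio between flg22 and water was averaged over the 4 genotypes and is given with its range over them in parentheses. RBCS1A over RBCS1B stood at 4.27, 2.98 and 2.80 in Col-0 water and at 14.1, 17.1 and 16.4 at 60 min, with a mean log2 ratio of 1.72 in water and 4.94 at 180 min. Its difference was 1.89 (1.07 to 2.26) at 60 min and 3.01 (1.55 to 4.01) at 180 min, and 12 of 12 flg22 libraries at 60 min and 12 of 12 at 180 min lay above all water libraries of their genotype. PSAH1 over PSAH2 stood at 1.45, 0.945 and 0.804 in Col-0 water, 3.15, 4.40 and 2.92 at 60 min and 4.83, 2.96 and 4.02 at 180 min. The differences were 1.51 (1.06 to 1.88) and 1.84 (1.01 to 2.28), with 12 and 12 of 12 libraries above water. In Col-0 at 60 min PSAH1 had a log2 change of -0.31 ± 0.45 (edgeR adjusted p = 0.591) and PSAH2 one of -2.01 ± 0.54 (adjusted p = 0.00127).

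LHCB4.1 over LHCB4.2 differed from water by 1.85 (1.41 to 2.44) at 60 min, with 12 of 12 libraries above water, and by 0.74 (0.34 to 0.98) at 180 min. LHCB1.4 over LHCB1.5 stood at 0.265, 0.375 and 0.316 in Col-0 water and at 1.75, 2.05 and 3.39 at 180 min. Its difference was 0.32 (-0.13 to 0.78) at 60 min and 2.57 (1.65 to 3.03) at 180 min. Of the 12 libraries at 180 min 12 lay above water. PSAD1 over PSAD2 stood at 4.29, 6.55 and 5.31 in Col-0 water and at 1.297, 3.06 and 1.82 at 180 min. Its difference was 0.35 (0.17 to 0.67) at 60 min and -1.34 (-1.75 to -0.65) at 180 min, when 12 of 12 libraries lay below water. PSBQ1 over PSBQ2, both for a protein of the oxygen-evolving complex, differed by -1.21 (-1.56 to -0.49) and -1.17 (-1.90 to -0.26) at 60 and 180 min. PSBO1 over PSBO2 differed by 0.07 (-0.24 to 0.27) and 1.103 (0.69 to 1.66), and without replicate 2 its value at 60 min was -0.03. PSAE1 over PSAE2 differed by 0.39 (0.26 to 0.52) and 0.17 (0.03 to 0.40), and PETE2 over PETE1 by 0.34 (-0.82 to 1.596) and -0.91 (-1.25 to -0.25). The PSAD, PSAE, PSAH, PSBO, PSBQ and LHCB4 pairs shared no coding window of 36 bases, but each of these genes had tag numbers that were not whole, hence split among genes, in 5 to 60 of 96 libraries, so their values are not fully separate.

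**Figure D5:**
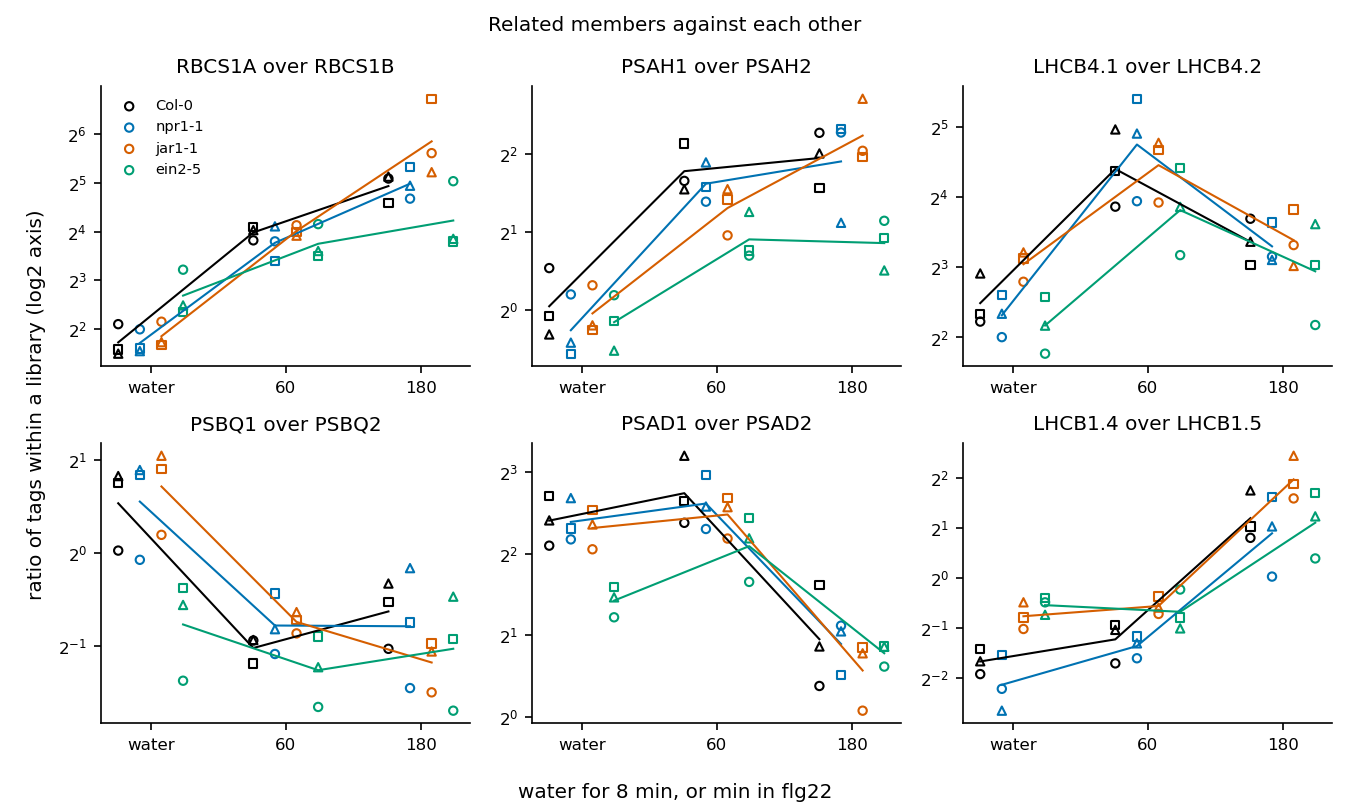
Ratio of tags of 2 related members within a library (y axis, log2 scale, a range of its own in each panel) in water for 8 min and at 60 and 180 min in flg22 (x axis), for 6 pairs, with a colour for each genotype, a symbol for each replicate and lines through the means of 3 libraries. The mean log2 difference from water at 180 min was 3.01 for RBCS1A over RBCS1B, 2.57 for LHCB1.4 over LHCB1.5 and -1.34 for PSAD1 over PSAD2.

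In npr1-1 few members were lower at 15 to 45 min and most of them at 120 and 180 min. Without the replicate term, their share at 15 to 45 min was below that of all genes. By edgeR no member was lower at 8 min (0.0206% of all genes, and no member by DESeq2 or at an unadjusted p under 0.05). RBCS1B was lower at 15 min (1 member, all genes 6.24%, with LHCB2.3 higher, all genes 8.5%), RBCS1B and PSBY at 30 min (2; 10.1%) and RBCS1B, PSBY and PSAD1 at 45 min (3; 16.6%, with LHCB2.3 higher, all genes 14.7%). At 60, 120 and 180 min 16, 28 and 39 members were lower (23.3, 22.3 and 21.1% of all genes), and from 60 to 180 min 26 fell (9.4%). The median member stood at -2.71 at 180 min. With the replicate term 5, 12, 10, 32, 46 and 46 members were lower at 15, 30, 45, 60, 120 and 180 min (all genes 11.8, 14.9, 21.4, 28.1, 25.9 and 24.7%), 5 were higher at 15 min (11.2%) and 2 at 45 min (17%), all in the LHCB1 and LHCB2 groups. From 60 to 180 min 40 were then lower (12.7%) and LHCB1.4 was higher (1 member, all genes 11%). Without replicate 1, 2 and 3 the counts were 25, 3 and 3 at 60 min, 41, 12 and 12 at 120 min, 43, 27 and 25 at 180 min and 19, 15 and 9 from 60 to 180 min. At 15, 30 and 45 min they were 3, 4 and 14 without replicate 1 and 0 without replicate 2 or 3.

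In jar1-1 no member was lower by edgeR at 8 min (0% of all genes, and no member by DESeq2 or at an unadjusted p under 0.05), and RBCS1B, RBCS2B and PETE2 were lower at 15 min (3 members; all genes 5.88%). None was called at 30 min by edgeR (9.86% of all genes were lower), where DESeq2 called 2 and 6 members had an unadjusted p under 0.05. RBCS1B and PSBY were lower at 45 min (2; 16.8%), and 9, 34 and 36 members at 60, 120 and 180 min (25.1, 22.7 and 22.2% of all genes), with a median of -2.43 at 180 min. From 60 to 180 min 18 fell (9.18%). With the replicate term 8, 4, 7, 31, 45 and 45 were lower at 15, 30, 45, 60, 120 and 180 min (all genes 11.5, 15, 22.1, 30.5, 26.6 and 26.4%), 3 were higher at 15 min (12.7%) and 4 at 45 min (18.6%), all of them LHCB1 or LHCB2 genes, and 36 were lower at 180 than at 60 min (14.1%). Without replicate 1, 2 and 3 the counts were 17, 4 and 3 at 60 min, 39, 12 and 12 at 120 min, 39, 26 and 19 at 180 min and 16, 14 and 6 from 60 to 180 min. At 15 min they were 3, 1 and 1, at 30 min 0 each time and at 45 min 8, 0 and 0.

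In ein2-5 the photosynthesis genes also fell. The earliest member lower was PSBY without the replicate term, at 45 min, and LHCB4.3 with it, at 15 min. LHCB4.3, which had 797 tags over all 96 libraries, was lower again at 60 min with the term but not at 30, 45, 120 or 180 min. At 30 min 0 members were lower with the term, beside 1017 of all 14569 genes. By edgeR none was called at 8 min (0% of all genes), none lower at 15 min (1.57%) and none at 30 min (3.99%), DESeq2 calling none either and 0, 6 and 2 members having an unadjusted p under 0.05 in either direction. LHCB2.3 was higher at 15 min (1 member; all genes 3.55%) and PSBY lower at 45 min (1; 9.62%). At 60, 120 and 180 min 7, 21 and 28 members were lower (14.2, 14.6 and 12.3% of all genes), with a median of -2.00 at 180 min, and RCA, PSBO1, PSBO2, PSAN and PETC fell from 60 to 180 min (5; 8.79%). With the replicate term 1, 5, 26, 43 and 45 were lower at 15, 45, 60, 120 and 180 min (4.32, 13.6, 19.3, 18.6 and 16.2% of all genes), 3 were higher at 15 min (6.08%) and 1 at 45 min (13.1%), 29 were lower at 180 than at 60 min (12.4%) and PSAD2 was higher (1; 10.3%). Without replicate 1, 2 and 3 the counts were 15, 0 and 1 at 60 min, 27, 4 and 5 at 120 min, 41, 12 and 10 at 180 min and 7, 1 and 1 from 60 to 180 min, and PSBY at 45 min kept its call without replicate 1 only. A difference between these counts and those in Col-0 was not tested.

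Across genotypes, 27 of 49 members were lower at 180 min in all 4 (10% of all genes), among them all 4 RBCS genes, RCA, LHCA1, LHCA3, LHCB4.1, LHCB5 and 9 PSB genes, and 7 in none (72.4% of all genes), namely LHCB1.1, LHCB1.2, LHCB1.4, LHCB1.5, LHCB2.1, LHCB2.2 and LHCB2.3. At 60 min 6 were lower in all 4 genotypes, namely RBCS1B, PSAD1, PSAD2, PSBX, PSBY and PETE2 (all genes 10.4%), and at 120 min 20 were (all genes 11.1%). With the replicate term LHCB1.1, LHCB1.2 and LHCB1.5 were lower at 180 min in all 4 genotypes. LHCB2.1 was then lower in npr1-1, jar1-1 and ein2-5, LHCB2.2 in npr1-1 and ein2-5, and LHCB1.4 and LHCB2.3 in none.

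The direct tests of a different response in a mutant covered the 7 time points together. No member had a different response in npr1-1 (0% of all genes called) or in jar1-1 (0%) by edgeR, where DESeq2 called none and 1 member each had an unadjusted p under 0.05. In ein2-5 the response of PSBY differed (edgeR adjusted p = 0.00588). That is 1 of 49 members, a share near the 1.54% of all genes. PSBY stood at 403, 596 and 490.4 CPM in ein2-5 water, overlapping Col-0, but at 234, 191 and 210.2 at 60 min, 109, 86.4 and 122 at 120 min and 113, 145 and 160.2 at 180 min, above every Col-0 library of the same time. Its log2 change was -1.83 ± 0.26 at 180 min in ein2-5 (edgeR adjusted p = 9.59e-08) against -3.32 ± 0.28 in Col-0, -3.73 ± 0.28 in npr1-1 and -3.57 ± 0.28 in jar1-1. The call was lost when any replicate was left out, with adjusted p of 0.0671, 0.397 and 0.0660 without replicate 1, 2 and 3. With the replicate term 2 of 49 members were called, again near the share of all genes (3.89%). They were PSBY (edgeR adjusted p = 0.000863) and RBCS1B (0.00988). RBCS1B stood at 1266, 2018 and 2369 CPM in ein2-5 water and at 196, 234 and 419 at 180 min, a log2 change of -2.73 ± 0.49 against -5.003 ± 0.54 in Col-0.

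In water no member differed from Col-0 by edgeR for ein2-5 (7.36% of all genes called), jar1-1 (0.0412%) or npr1-1 (0.0686%). DESeq2 called none in any of the 3, and 8, 0 and 0 members had an unadjusted p under 0.05. LHCA4, an antenna gene of photosystem I, stood at 1894, 911 and 1109 CPM in ein2-5 water against 467, 352 and 242 in Col-0. The groups did not overlap, and the log2 difference of 1.88 ± 0.60 missed the threshold (edgeR adjusted p = 0.0275). In the fit with the replicate term 7 members were higher in ein2-5 water and none lower. Of all 14569 genes 1156 were higher and 606 lower in that fit (12.1% called in either direction). The 7 members were LHCA1, LHCA4, LHCB1.4, LHCB2.2, LHCB3, PSAD2 and PSBQ2, with LHCA4 at 1.85 ± 0.32 (edgeR adjusted p = 5.53e-06) and PSAD2 at 1.104 ± 0.29 (0.00351). Replicates are nested in genotypes, so that fit leaves the spread between replicates out of this comparison.

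Tags antisense to the members were also lower at several members. Of the 49 genes 31 had an antisense locus that passed the filter. In Col-0 0, 3, 2, 6, 12, 13 and 17 of the 31 were lower by edgeR at the 7 times from 8 to 180 min, those of RBCS1B and RBCS2B from 15 min on. Of all 2247 antisense loci tested, 0, 0.935, 2.09, 4.32, 6.23, 5.21 and 5.65% were lower at these times. At 180 min 7 of the 31 were lower for ein2-5 (all antisense loci 2.89%), 16 for jar1-1 (6.99%) and 12 for npr1-1 (5.21%). Antisense tags were 2.62% of the tags on both strands at RBCS1A, 1.77% at RBCS3B and 4.17% at PSBQ2 over all libraries. Whether they are separate transcripts was not tested.

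Other genes of the same pathways, from lists chosen with earlier results of these data known, were mostly lower too. Among all genes, 22.5% were lower at 60 min and 18.1% at 180 min in Col-0. Of 16 Calvin cycle genes 13 were lower at 60 min and 15 at 180 min in Col-0, among them CP12-2, a regulator of the cycle (-3.72 ± 0.48 at 60 min), and the aldolase FBA1 (-3.13 ± 0.64). CP12-3 was higher at 180 min (2.94 ± 0.41, edgeR adjusted p = 8.14e-09). Of 11 genes of electron transport and the ATP synthase 7 were lower at 60 min and 11 at 180 min, among them the ferredoxin FD2 (-2.99 ± 0.47 at 60 min) and ATPD (-2.42 ± 0.40). Of 22 chlorophyll synthesis genes tested of 23 listed 13 and 12 were lower, with CHLI2 of the magnesium chelatase at -4.16 ± 0.70 at 60 min, and GSA1 was higher at both times and HEMB1 at 180 min (0.89 ± 0.25), with GSA1 at 0.90 ± 0.21 at 60 min. DVR had 0 tags at 60 min against 29 in Col-0 water, at least 7.46-fold lower against a floor of 3 tags over the group. The median changes of the 3 lists at 60 min were -1.41, -1.22 and -1.38, beside -1.06 for the 49 genes.

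Of 8 listed regulators of these genes, 5 were lower at 60 min and 5 at 180 min in Col-0 (all genes 22.5 and 18.1%). HY5, a light-signalling factor, changed by -3.85 ± 0.75 at 60 min (edgeR adjusted p = 1.61e-05) and by 0.35 ± 0.54 at 180 min (adjusted p = 0.639), and SIG2, a sigma factor of the chloroplast RNA polymerase, by -3.32 ± 0.45 and -3.00 ± 0.45. GLK2, an activator of antenna genes, was lower at 60 min (-3.31 ± 0.66) and at 180 min (-2.06 ± 0.60), and GLK1 at 180 min (-1.57 ± 0.39). Of 7 clock genes tested of 10 listed, GI (-2.64 ± 0.49), ELF3 (-2.33 ± 0.56) and ELF4 (-1.60 ± 0.40) were lower at 60 min (all genes 22.5%). At 180 min LUX was higher (1.26 ± 0.26). All 6 listed flg22 marker genes were higher at both times, beside 2385 and 2426 of all 14569 genes at 60 and 180 min. NHL10 rose by 7.66 ± 0.56 and WRKY29 by 4.59 ± 0.47 at 60 min on the log2 scale.

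Markers of other cells in the disc also moved. The summed level of 5 epidermis markers was 47.7 to 63.2 CPM in Col-0 water, 17.0 to 24.1 at 60 min and 19.5 to 38.6 at 180 min. PDF2, 1 of the 4 tested, was lower at both times (all genes 22.5 and 18.1%). The 4 guard cell markers summed to 16.8 to 24.8, 2.42 to 3.22 and 10.8 to 18.1, FAMA being lower at 60 min, when MYB60 and HT1 had no tag. The 4 vasculature markers summed to 33.9 to 76.6, 17.2 to 59.5 and 73.6 to 88.0 with none called of 3 tested, and CER1 of the epidermis and all 3 root markers had no tag in these groups. The part of a changing cell makeup in the fall of the photosynthesis genes was not tested.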

How the data were processed

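Leaf disc RNA was profiled by EXPRSS Tag-seq, which reads a tag near the 3′ end of poly(A) transcripts, in 96 libraries of 32 groups with 3 replicates each. The authors deposited estimated counts per locus and strand: tags were aligned to TAIR10 with Bowtie 0.12.8 per the submitters' processing notes, and a tag that matched up to 10 genes was split equally among them. Counts were rounded to whole numbers. Features were kept by edgeR's filterByExpr on groups (16816 kept, 14569 of them sense), scaled by TMM and tested with the quasi-likelihood test of edgeR 4.0.16 in R 4.3.3, with all 32 groups in a single model and Benjamini-Hochberg adjustment within a comparison. A call is an adjusted p under 0.01, and the SE of a log2 change is its size divided by the square root of F. The interaction test had 7 terms. DESeq2 1.42.0, other scalings and filters, a replicate term, summed paralogues and leaving out replicates were the alternatives. The study tested these counts with baySeq, which was not used here.

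Libraries held 388690.7 to 2415392.8 tags, and 12.0 to 18.4% of the values above 0 were not whole. No replicate pair agreed within sampling noise (chi-square per degree of freedom 3.10 or more over 96 pairs), and the common dispersion was 0.0866. The study calls the replicates biological, and nothing in the labels says that they came from separate plants, so p-values measure the spread between these samples. Libraries of a genotype with the same replicate number were taken as a block. Whether they shared a sequencing lane, a harvest or both is not given in the labels, and their deviations from the group means went together: the mean correlation over 84 pairs was 0.601 for ein2-5, 0.335 for jar1-1, 0.401 for npr1-1 and 0.341 for Col-0, and 84, 79, 83 and 83 pairs were above 0.1. The comparisons of a genotype with water share the same 3 water libraries.

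The members and the lists of other genes were chosen with earlier results of these data known. Genes named with full values were the most abundant member of each family in Col-0 water, the 3 members with the largest called falls and rises at 60 and at 180 min in Col-0 and those with a different response in a mutant, beside others chosen after their values were seen. Sequences, positions and shared 36-base coding windows were read from the RefSeq genome TAIR10.1. The edgeR step was tested on simulated data.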

Additional observations from a re-analysis of the deposited data

Results flagged for a closer look

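The response of PSBY to flg22 differed between ein2-5 and Col-0 by the test of the difference over the 7 time points (edgeR adjusted p = 0.00588). The difference was no longer called when any 1 replicate was left out of every group, with adjusted p from 0.0660 to 0.397. PSBY was the member called of the 49 genes in this test, a share near the 1.54% of all genes called. The part of the sequencing run in the difference cannot be told apart from the genotype.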

How the results depend on the processing

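Of the log2 changes of the members in Col-0 at 60 and 180 min and the ratios, no called value turned its sign, and 11 values that were not called did. These were PSBO1 over PSBO2 at 60 min (-0.03 without replicate 2), LHCB2.1, LHCB2.2 and LHCB2.3 at 60 min (7 values, from -0.20 to 0.46) and LHCB1.4 at 180 min (-0.07 with total tags, -0.09 without replicate 3 and -1.92 with paralogues summed). The -1.92, and the -0.20 of LHCB2.3 with paralogues summed, are changes of the summed set that the gene belongs to, not of the single gene. Of the 38 counts of members called, 37 stayed within 1.5 times under DESeq2 (jar1-1 at 30 min went from 0 to 2) and 38 under DESeq2's size factors in edgeR. Without organelle loci Col-0 had 1 at 15 min and 1 at 30 min, and npr1-1 had 10 at 60 min. Scaling by total tags gave 5 in Col-0, 6 in npr1-1 and 3 in jar1-1 at 30 min, 8 in jar1-1 at 45 min and 22 at 60 min, 3 in ein2-5 between 60 and 180 min and 0 for the ein2-5 interaction. It moved the median of all genes by -0.45 to 0.21 on the log2 scale. Fitting only the genotypes compared gave 4 in Col-0 at 30 min and 32 between 60 and 180 min, 1, 1 and 10 in npr1-1 at 30, 45 and 60 min, 1 in jar1-1 at 45 min, and 0, 13 and 3 in ein2-5 at 45 min, at 120 min and between 60 and 180 min. With no filter on low counts Col-0 had 37 between 60 and 180 min; npr1-1 had 2 at 15 min, 43 at 120 min and 40 between 60 and 180 min; jar1-1 had 2, 14 and 40 at 30 min, at 60 min and between 60 and 180 min; and ein2-5 had 0, 14, 35 and 44 at 45, 60, 120 and 180 min, 19 between 60 and 180 min, 13 in water and 3 for the interaction. With paralogues summed the counts were 1 and 1 in Col-0 and 0 and 1 in npr1-1 at 15 and 30 min, and 1 and 1 in jar1-1 at 15 and 45 min. With the replicate block 24 counts were larger by more than 1.5 times or rose from 0. In Col-0 they were 5, 10, 13 and 35 at 15, 30, 45 and 60 min and 37 between 60 and 180 min. In npr1-1 they were 5, 12, 10, 32, 46 and 40 at 15, 30, 45, 60 and 120 min and between 60 and 180 min. In jar1-1 they were 8, 4, 7, 31 and 36 at 15, 30, 45 and 60 min and between 60 and 180 min. In ein2-5 they were 1, 5, 26, 43, 45 and 29 at 15, 45, 60, 120 and 180 min and between 60 and 180 min, with 7 in water and 2 for the interaction. The counts at 120 and 180 min in Col-0 and jar1-1 and at 180 min in npr1-1 were also larger, but within 1.5 times. The cause of these shifts was not tested. Of these alternatives, the shares of all genes are given for the replicate block only, in the text above.

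Leaving out 1 replicate gave 0 to 3, 0 to 7, 1 to 10, 6 to 21, 16 to 44, 23 to 43 and 5 to 30 members in Col-0 at 15, 30, 45, 60, 120 and 180 min and between 60 and 180 min. The ranges were 0 to 3, 0 to 4, 0 to 14, 3 to 25, 12 to 41, 25 to 43 and 9 to 19 in npr1-1 and 1 to 3, 0 to 0, 0 to 8, 3 to 17, 12 to 39, 19 to 39 and 6 to 16 in jar1-1. In ein2-5 they were 0 to 1, 0 to 15, 4 to 27, 10 to 41 and 1 to 7 at 45, 60, 120 and 180 min and between 60 and 180 min, 0 to 1 in water and 0 to 0 for the interaction. No share of all genes is given beside these counts. The mean summed share in Col-0 ran from 5.92 to 7.16% in water, 1.85 to 2.68% at 60 min and 0.739 to 1.17% at 180 min. It ran from 5.29 to 6.11, 1.59 to 2.92 and 0.774 to 1.01% in npr1-1, from 6.52 to 6.66, 2.08 to 2.95 and 0.971 to 1.17% in jar1-1, and from 6.47 to 6.78, 3.08 to 4.24 and 1.78 to 2.51% in ein2-5. Without organelle tags the share was 8.45, 7.62, 8.27 and 9.47% in the water groups of Col-0, then npr1-1, then jar1-1 and last ein2-5 and 1.32% in jar1-1 at 180 min, and without antisense tags it was 6.85% in jar1-1 water. The adjusted p of the PSBY interaction in ein2-5 was 0.000111 by DESeq2, 0.0176 with total tags, 0.0172 with no filter, 0.000864 with the replicate block and 0.0660 to 0.397 without 1 replicate. Without 1 replicate the difference in log2 ratio ran from 0.321 to 0.402 for PSAD1 over PSAD2, 0.360 to 0.446 for PSAE1 over PSAE2 and 0.284 to 0.373 for LHCB1.4 over LHCB1.5 at 60 min, and from -1.10 to -0.785 for PETE2 over PETE1 at 180 min. The alternative pseudocount of 1 tag for the ratios, which are given with 0.5, and the runs without 1 replicate for ratios and shares were chosen after seeing the data. Low depth limits LHCB4.3, PETE1 and LHCB2.3, which had 797, 994 and 1446 tags over all 96 libraries.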
